A study of Mus musculus with 8 samples.

Results

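Organic ion transporters and ABC drug transporters are membrane proteins that carry drugs, toxins, bile salts, hormones, prostaglandins and lipids across cell membranes. The genes described here are all those whose symbol in the probe annotation starts with Slc47, Slc22, Slco, Abca, Abcb, Abcc or Abcg, which gave 68 genes with 114 probes, out of 16590 genes with 25697 probes on the array. They were measured in total RNA of mouse embryonic fibroblasts (MEFs) with the genotype Trp53-/- Dnmt1+/+, so that p53, a tumour suppressor, is missing while Dnmt1, whose product copies DNA methylation onto newly made strands, is wild type. The cells were kept for 72 h either in DMSO, the solvent control, or in 5-aza-2'-deoxycytidine (5-aza-dC). This nucleoside is incorporated into DNA during replication and there traps methyltransferases. The labels give a dose of 1 µM, while the study's methods give a lower one, and which holds for these samples was not settled. Both groups share the Trp53 deletion and the strain background, which the labels call unknown. Control and 5-aza-dC cells each came as 2 biological replicates, every one hybridised to 2 arrays that were averaged (n = 2 per group). The p-values and standard errors measure only the spread between these samples. For them each gene's variance was drawn towards that of genes of similar level (3.82 prior and 2 residual degrees of freedom).

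The families divide by direction and energy source. MATE proteins (Slc47) exchange organic cations for protons and export them, Slc22 proteins take up organic cations, anions, carnitine and zwitterions, and organic anion transporting polypeptides (Slco) take up bile salts, hormones and prostaglandins. ABC proteins use ATP to pump lipids (mostly Abca), drugs and phospholipids (Abcb), conjugated anions (Abcc) or sterols and drugs (Abcg) across a membrane. Many members are best known from liver, kidney, intestine and barrier endothelium, where uptake carriers and export pumps sit on opposite sides of polarised cells.

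A probe counted as detected on an array where its detection p-value was under 0.05, that is, where fewer than 5% of the negative control beads were brighter. Of the 68 members 39 were undetected on every array at every probe, 1 (Slc22a14) was detected on too few arrays to be kept, and 28 (41.2%) were tested, against 57.3% of all genes on the array. Of the 28 tested members 12 were higher and 6 lower after 5-aza-dC and 10 did not pass (limma, Benjamini-Hochberg adjusted p under 0.05 over all 9502 genes tested). Of all genes tested, 52.0% were called, 26.3% as higher and 25.7% as lower, beside 64.3%, 42.9% and 21.4% of the members tested. Of the 12 higher members, 5 had a probe that was undetected on all 4 control arrays and so entered the test through their 5-aza-dC arrays, and 1 of the 6 lower members (Abca8b) entered through control arrays alone. Among the 21 members whose probe was detected in both groups, 7 were higher, 5 lower and 9 did not pass (33.3% higher and 23.8% lower, beside 24.0% and 25.7% of all genes detected in both groups). The median log2 fold change of the 28 was 0.11 (0.06 with undetected members at their bound), beside -0.02 for all genes tested. It lay at 0.01 without 5-aza-dC replicate 1, at 0.15 without 5-aza-dC replicate 2 and at 0.16 without control replicate 2, so it rests on which replicates enter.

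More than 2-fold differences were called for 5 of the 28 members tested, where the share among all genes tested was 15.5%. Of the 5 members 4 were higher (Slc47a1, Slco2a1, Abcb1b and Slc22a4) and 1 was lower (Slc22a17). The control and treated replicates did not overlap for 24 of the 28, beside 76.5% of all genes tested. The plot of fold changes sets out all 28 by family. The 13 Slc members tested split into 7 higher, 1 lower and 5 that did not pass, with a median log2 fold change of 0.31 (0.25 with bounds), and 5 of the 7 were undetected in control. All 6 members detected on 5-aza-dC arrays only were Slc genes. Of all 551 genes detected in that way, 73.3% were called higher and 0 lower, so the filter itself favours higher calls among the Slc members. The 15 ABC members tested split evenly, with 5 higher, 5 lower and 5 that did not pass, and a median of -0.16. The difference between these classes was not tested.

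**Figure D1:**
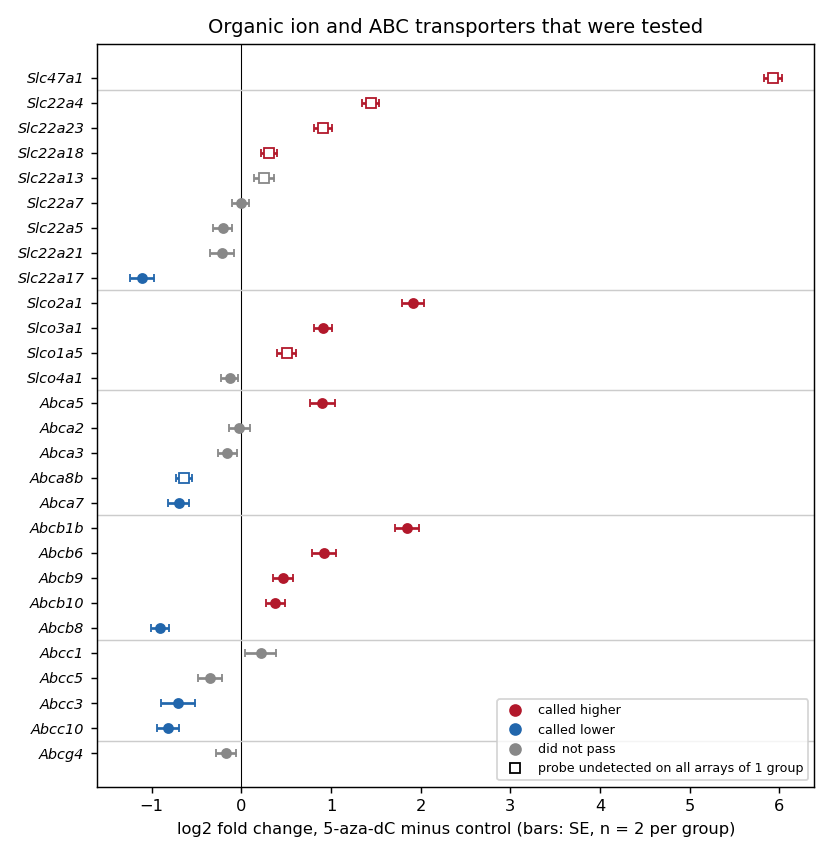
Log2 fold change (5-aza-dC minus control, x axis) with its standard error (bars, n = 2 per group) of each of the 28 members tested, grouped by family from Slc47 at the top to Abcg at the bottom. Slc47a1 stands at 5.93, all other members lie between -1.11 and 1.91, and open squares mark probes undetected on every array of 1 group.

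Promoter sequences are shown for the members called with more than 2-fold differences, except Slc47a1, which had no promoter entry. The sequence of Slc22a5, a neighbour of Slc22a4 that did not pass, is shown as well. Mammalian DNA is methylated mostly at CG dinucleotides, and their number at the start of each gene gives context to the values. Each window runs from 250 bases before to 50 bases after the annotated start (RefSeq, GRCm38.p6), 5′ to 3′ on the gene's own strand, and capitals mark every CG.
Slco2a1, chr9:103008237-103008536, plus strand: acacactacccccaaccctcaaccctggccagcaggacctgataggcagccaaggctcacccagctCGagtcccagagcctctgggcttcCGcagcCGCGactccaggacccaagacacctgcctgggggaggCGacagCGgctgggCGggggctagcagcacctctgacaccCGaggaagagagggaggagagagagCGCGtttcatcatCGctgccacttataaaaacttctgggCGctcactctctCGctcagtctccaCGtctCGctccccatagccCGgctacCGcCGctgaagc
Abcb1b, chr5:8797897-8798196, plus strand: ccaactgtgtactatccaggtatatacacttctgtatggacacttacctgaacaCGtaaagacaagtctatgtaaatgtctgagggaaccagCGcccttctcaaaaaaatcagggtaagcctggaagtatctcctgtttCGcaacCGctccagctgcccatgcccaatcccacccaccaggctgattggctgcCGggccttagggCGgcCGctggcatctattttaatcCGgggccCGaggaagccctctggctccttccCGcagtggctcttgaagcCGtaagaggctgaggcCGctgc
Slc22a4, chr11:54028055-54028354, minus strand: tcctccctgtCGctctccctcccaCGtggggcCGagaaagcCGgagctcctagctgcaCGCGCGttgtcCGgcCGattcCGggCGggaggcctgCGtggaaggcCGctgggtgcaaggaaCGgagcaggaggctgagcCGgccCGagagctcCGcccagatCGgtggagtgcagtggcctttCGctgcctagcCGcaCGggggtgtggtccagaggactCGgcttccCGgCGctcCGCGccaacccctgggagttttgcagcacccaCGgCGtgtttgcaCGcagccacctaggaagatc
Slc22a5, chr11:53891654-53891953, minus strand: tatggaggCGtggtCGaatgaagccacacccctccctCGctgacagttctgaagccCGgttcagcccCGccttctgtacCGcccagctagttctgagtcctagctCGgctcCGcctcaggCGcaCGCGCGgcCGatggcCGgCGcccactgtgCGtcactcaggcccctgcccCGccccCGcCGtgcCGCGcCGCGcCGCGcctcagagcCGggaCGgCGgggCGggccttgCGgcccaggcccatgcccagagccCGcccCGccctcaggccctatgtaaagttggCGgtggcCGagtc
Slc22a17, chr14:54913083-54913382, minus strand: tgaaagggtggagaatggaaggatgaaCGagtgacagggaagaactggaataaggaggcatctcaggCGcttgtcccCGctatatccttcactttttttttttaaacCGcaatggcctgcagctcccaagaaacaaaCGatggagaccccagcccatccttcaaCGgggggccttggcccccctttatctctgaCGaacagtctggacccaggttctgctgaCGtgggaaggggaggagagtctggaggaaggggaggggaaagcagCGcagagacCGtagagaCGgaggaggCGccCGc
The windows hold 18 (Slco2a1), 12 (Abcb1b), 29 (Slc22a4), 34 (Slc22a5) and 13 (Slc22a17) CG dinucleotides, a motif that reads the same on both strands and occurs at least once in 94.6% of all windows in the table, with a median of 7. For all genes tested on these arrays the median was 20.5, above the counts of Slco2a1, Abcb1b and Slc22a17. DNA methylation itself was not measured on these arrays.

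Slc47a1 encodes MATE1, the proton-coupled exporter that passes organic cations such as metformin from kidney tubule cells into urine and from hepatocytes into bile. It had the largest measured difference of the members and was undetected in control at the probe used. That probe, ILMN_2849016, gave a non-normalised signal of 39.5, 50.3, 42.4 and 47.2 intensity units on the control arrays and of 1113, 1241, 1175 and 1437 on the 5-aza-dC arrays. All 4 treated arrays thus lay far above all 4 control arrays, and both replicates did so alike. On the normalised log2 scale the level was 4.34 and 4.36 in the control replicates and 10.31 and 10.26 in the 5-aza-dC replicates. Slc47a1 was at least 42.5-fold higher after 5-aza-dC, where each control array is set to its dimmest detected probe (measured log2 fold change 5.93 ± 0.10, SE; adjusted p = 1.263e-05). The bound holds for the background offset of 16 used here: the measured log2 fold change was 4.56 with an offset of 50 and 4.64 in the deposited normalised values, both below the 5.41 of the bound.

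The 4 probes of Slc47a1 were all kept, and they did not read alike. In the fit over all 14308 kept probes, of which 27.2% were called higher, 3 of the 4 were higher and 1 did not pass. Probe ILMN_2749840 had signals of 50.3, 54.9, 49.4 and 49.2 on control arrays and of 177, 207, 178 and 201 on 5-aza-dC arrays, at least 5.62-fold higher (adjusted p = 1.493e-05). Probe ILMN_2749842 read 40.3 to 46.0 on the control arrays and 158, 190, 191 and 187 after 5-aza-dC, at least 5.30-fold higher (adjusted p = 1.2e-05). These probes, like ILMN_2849016, were undetected on all 4 control arrays and detected on all 4 treated arrays. Probe ILMN_2694463 behaved differently, with 61.9, 62.8, 56.6 and 60.0 in control and 55.8, 60.0, 60.2 and 56.1 after 5-aza-dC. It was detected on 4 control and 3 treated arrays, close to background throughout, and its log2 fold change of -0.14 ± 0.10 did not pass (adjusted p = 0.283). Which part of the transcript each probe reads was not tested. With the mean of all 4 probes in place of the probe used, the log2 fold change was 2.90 (adjusted p = 3.607e-05).

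**Figure D2:**
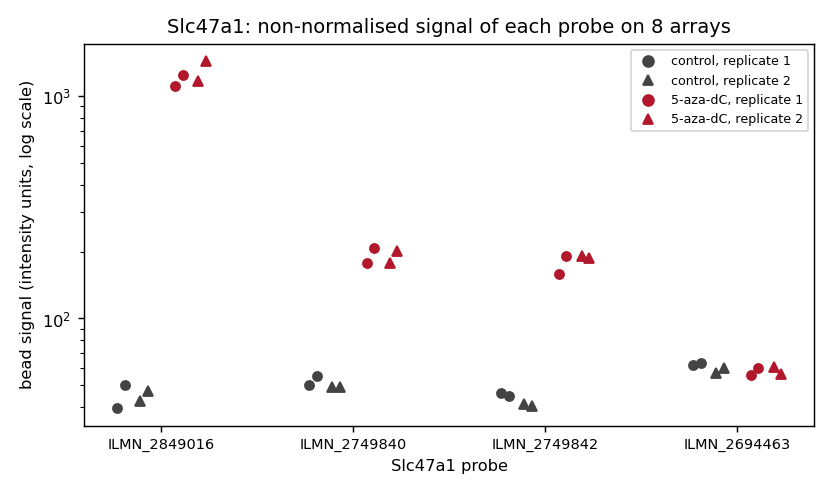
Non-normalised bead signal (intensity units, log axis) of the 4 Slc47a1 probes on each of the 8 arrays, with control in grey, 5-aza-dC in red, and circles and triangles for biological replicates 1 and 2. At 3 probes every treated array lies above every control array, and at ILMN_2694463 the groups overlap between 56.6 and 60.2.

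Slc47a2, which encodes the second MATE protein, is the chromosomal neighbour of Slc47a1 and was undetected on every array at both of its probes. Their signals ran from 39.3 to 44.6 (ILMN_3082420) and from 38.0 to 47.7 (ILMN_3011926) in control, and from 42.3 to 49.7 and from 44.4 to 47.7 after 5-aza-dC. The unfiltered log2 differences of 0.04 and 0.02 stand beside 5.93 at the neighbouring gene.

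The Slc22 family has 16 genes on the array. Tests were possible for 8, with 3 higher, 1 lower and 4 that did not pass. Of all genes tested 26.3% were higher and 25.7% lower, shares that stand beside the counts of this and each later family. Slc22a4 encodes OCTN1, a carrier of the dietary antioxidant ergothioneine. Its normalised log2 level was 4.51 and 4.63 in the control replicates and 5.98 and 6.04 in the 5-aza-dC replicates, with signals of 47.3 to 57.1 against 86.2 to 107 units. The treated samples lay above the control samples, and the probe was undetected in control, so that Slc22a4 was at least 2.20-fold higher (measured log2 fold change 1.44 ± 0.10, SE; adjusted p = 1.915e-04). The fold change of this low-level gene depends on the background: it was 0.77 on the log2 scale with a background offset of 50 and 0.81 in the authors' deposited normalised values, and it passed in both. Both values lie below the bound, which is 1.14 on the log2 scale and holds for the offset of 16 only.

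Slc22a4 lies beside Slc22a21 and Slc22a5, the genes of carnitine transporters of the same OCTN group. Slc22a5, encoding OCTN2, which brings carnitine into cells for fatty acid oxidation, was detected on all 8 arrays at all 3 probes. At the probe used its level was 8.27 and 8.31 in control and 8.15 and 8.01 after 5-aza-dC, and the log2 fold change of -0.21 ± 0.11 (SE) did not pass (adjusted p = 0.157). Its other probes had log2 fold changes of -0.23 and 0.22 and did not pass either. Arrays scaled to their median gave -0.33 for Slc22a5 and an adjusted p of 0.0345. Slc22a21, the mouse OCTN3 gene, had levels of 5.37 and 5.64 in control and 5.39 and 5.19 after 5-aza-dC, with overlapping groups (log2 fold change -0.22 ± 0.13, adjusted p = 0.222). Of these 3 neighbours only Slc22a4 was called, while the differences between the genes were not tested.

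Slc22a23, an orphan member with no settled substrate, rose at 1 of its 2 probes, from signals of 46.0 to 53.3 in control, undetected, to 73.1 to 75.3 after 5-aza-dC. It was at least 1.48-fold higher (log2 fold change 0.91, adjusted p = 9.645e-04). Slc22a18, an imprinted gene of the Kcnq1 domain, had levels of 4.46 and 4.55 in control and 4.77 and 4.86 after 5-aza-dC (log2 fold change 0.31, adjusted p = 0.0349). No fold remained for Slc22a18 at the bound, since it was undetected in control and detected on only 2 treated arrays. The call ended without control replicate 1 (adjusted p = 0.195), without control replicate 2 (0.0852), without 5-aza-dC replicate 2 (0.0534) and with arrays entered singly (0.147).

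Slc22a17, which encodes the receptor for the iron-carrier protein lipocalin 2, was the member that fell most. Its level at the probe used was 5.79 and 6.07 in the control replicates and 4.72 and 4.93 in the 5-aza-dC replicates, with signals of 82.8 to 99.9 against 52.9 to 67.1 units. The groups did not overlap, and the gene was 2.15-fold lower (log2 fold change -1.11 ± 0.14, SE; adjusted p = 0.00139). Its second probe ran from 62.6 to 69.6 in control and from 60.0 to 65.4 after 5-aza-dC and did not pass, at a log2 fold change of -0.18 (adjusted p = 0.187). The fall was smaller, with log2 fold changes of -0.61 with an offset of 50, -0.62 in the deposited normalised values and -0.64 with the mean of both probes, and it passed in each.

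The other tested members of the family did not pass. Slc22a7, the organic anion transporter OAT2, had a log2 fold change of -0.01 (adjusted p = 0.965) with overlapping groups, and Slc22a13 one of 0.25 (adjusted p = 0.109) from a probe undetected in control. Without 5-aza-dC replicate 2 Slc22a13 was called higher (log2 fold change 0.35, adjusted p = 0.0172). Slc22a14, its neighbour, was detected on 1 treated array only. Slc22a2 (the cation carrier OCT2 of kidney), Slc22a6 and Slc22a8 (the kidney anion carriers OAT1 and OAT3), Slc22a12 (the urate carrier), Slc22a19, Slc22a22 and Slc22a26 were undetected on every array. Slc22a2, for example, had signals of 44.1 to 53.1 in control and 48.1 to 51.3 after 5-aza-dC.

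Of the 11 Slco genes 4 were tested, of which 3 were higher, 1 did not pass and 0 were lower (limma, and 0 at an unadjusted p under 0.05). Slco2a1 encodes the prostaglandin transporter, which clears prostaglandin E2 from the surroundings of cells. Its normalised level was 7.44 and 7.67 in the control replicates and 9.48 and 9.44 in the 5-aza-dC replicates, and the signal rose from 206 to 240 units in control to 655 to 784 units after treatment. The probe was detected on all 8 arrays, the groups lay far apart, and Slco2a1 was 3.76-fold higher (log2 fold change 1.91 ± 0.12, SE; adjusted p = 1.504e-04). Over all alternatives its log2 fold change stayed between 1.71 and 2.03.

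Slco3a1, a broadly expressed organic anion transporting polypeptide, was higher at all 3 probes, with log2 fold changes of 0.48 to 0.91. At the probe used the level was 5.01 and 5.07 in control and 6.02 and 5.87 after 5-aza-dC, 1.88-fold higher (adjusted p = 0.00104). Slco1a5, an uptake carrier for bile salts and other organic anions, was undetected in control (signals of 47.3 to 52.9) and detected on all 4 treated arrays (59.6 to 66.6), at least 1.09-fold higher (log2 fold change 0.51, adjusted p = 0.00938). Slco1a6, its neighbour, was undetected throughout. Slco4a1, a carrier of thyroid hormone, had a log2 fold change of -0.13 and was not called (adjusted p = 0.293). Slco1a1, Slco1a4, Slco1b2, Slco1c1, Slco2b1 and Slco4c1 were undetected on every array, among them Slco1b2, the main uptake carrier of this family in mouse liver.

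**Figure D3:**
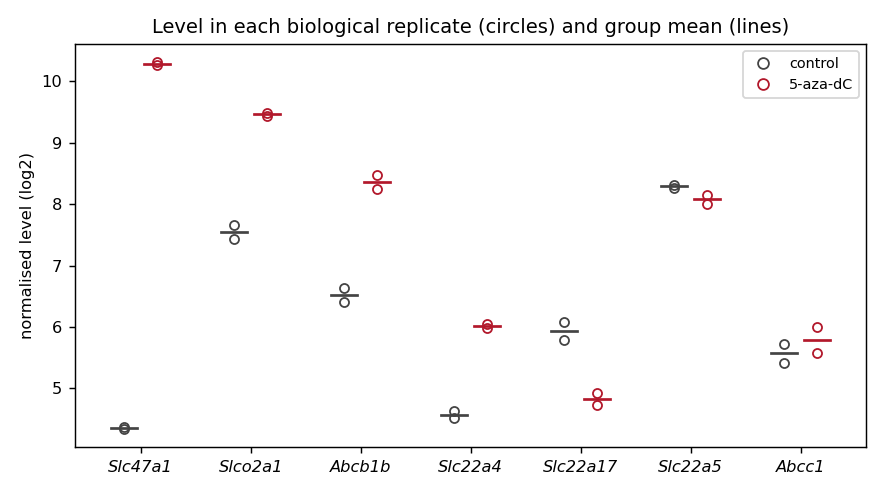
Normalised log2 level (y axis) in each biological replicate (circles, mean of 2 technical arrays) and group mean (lines) for the 5 members called with over 2-fold differences and for Slc22a5 and Abcc1, which did not pass. Each gene is read by its own probe, so levels compare groups within a gene, and only the groups of Abcc1 overlap.

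Of the 8 Abcb genes 5 were tested, 4 were higher and 1 was lower. Abcb1b encodes a P-glycoprotein, the pump that expels many hydrophobic drugs and that in rodents comes from a pair of genes, Abcb1a and Abcb1b. The level of Abcb1b was 6.41 and 6.63 in the control replicates and 8.48 and 8.25 in the 5-aza-dC replicates, from signals of 116 to 134 units in control and 323 to 377 after treatment. Detected on all 8 arrays, with groups far apart, it was 3.60-fold higher (log2 fold change 1.85 ± 0.14, SE; adjusted p = 2.428e-04), and between 1.51 and 1.96 on the log2 scale over all alternatives. Abcb1a, its neighbour and close paralogue, was undetected on every array, with signals of 42.1 to 46.5 in control and 41.8 to 49.1 after 5-aza-dC. Each of the genes was read by 1 probe, and whether a probe also binds the transcript of the other was not tested. Abcb4, the third gene of this run and the phospholipid floppase of bile, was undetected on every array (42.6 to 48.3 against 47.2 to 52.4).

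The other tested Abcb members act inside the cell. Abcb6, a porphyrin transporter, was 1.90-fold higher (levels 5.22 and 5.53 against 6.33 and 6.27; adjusted p = 0.00228). Abcb9, a peptide transporter of lysosomes, was called higher at both kept probes (log2 fold change 0.47 at the probe used, adjusted p = 0.0178). The Abcb9 call ended without control replicate 2 (adjusted p = 0.118) and in the deposited normalised values (0.0986). Abcb10, a mitochondrial transporter needed for haem synthesis, had levels of 7.66 and 7.80 in control and 8.08 and 8.13 after 5-aza-dC (log2 fold change 0.38 ± 0.11, adjusted p = 0.0281). Its call ended without control replicate 1 (adjusted p = 0.293), without control replicate 2 (0.130), with median scaling (0.0722) and with the replicate number as a block (0.0965). Abcb8, a mitochondrial member, was lower at all 3 probes, with log2 fold changes of -0.52 to -0.91. Probes ILMN_2590908 and ILMN_2663015 were undetected on every treated array and were at least 1.14-fold and 1.37-fold lower. At the probe used the level of Abcb8 was 5.96 and 5.91 in control and 4.95 and 5.10 after 5-aza-dC, 1.88-fold lower (adjusted p = 0.00102). Abcb11, the bile salt export pump of liver, was undetected.

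Of the 9 Abcc genes 4 were tested, of which 2 were lower, 2 did not pass and 0 were higher (limma, and 0 at an unadjusted p under 0.05). Abcc1 encodes MRP1, a pump for glutathione conjugates and drugs found in most tissues. Its level was 5.42 and 5.72 in control and 5.99 and 5.58 after 5-aza-dC, with overlapping groups, and its log2 fold change of 0.22 ± 0.18 (SE) did not pass (adjusted p = 0.348). The value moved with every replicate: without 5-aza-dC replicate 2 it was 0.43 and called (adjusted p = 0.0216), without 5-aza-dC replicate 1 it was 0.01, and it was 0.07 and 0.36 without control replicates 1 and 2. Abcc10, encoding MRP7, was 1.76-fold lower (6.68 and 6.58 against 5.69 and 5.94; adjusted p = 0.00282), and Abcc3, encoding MRP3, a pump of glucuronides, was 1.63-fold lower (6.24 and 6.02 against 5.17 and 5.67; adjusted p = 0.0216). The Abcc3 call ended without control replicate 1 (adjusted p = 0.0530), and its log2 fold change of -0.71 was -0.46 without 5-aza-dC replicate 1.

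Abcc5, encoding MRP5, a pump of cyclic nucleotides and nucleotide analogues, gave different values at its 2 kept probes. At the probe used the level was 7.90 and 7.88 in control and 7.38 and 7.70 after 5-aza-dC, a log2 fold change of -0.35 ± 0.13 (SE) that did not pass (adjusted p = 0.0723). The other probe, undetected in control, was called higher (log2 fold change 0.38, adjusted p = 0.0199). At the probe used Abcc5 was called lower without 5-aza-dC replicate 2 (-0.51, adjusted p = 0.00371), with median scaling (-0.47, 0.0404) and with arrays entered singly (0.0345), and with the mean of both probes the difference was 0.02. Abcc2 (MRP2 of bile canaliculi), Abcc6, Abcc8 and Abcc9 (the sulphonylurea receptors of potassium channels) and Abcc12 were undetected on every array.

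Of the 16 Abca genes 5 were tested, of which 1 was higher, 2 were lower and 2 did not pass. Abca5, a lysosomal member, was higher at 1 of its 2 probes, with levels of 5.09 and 5.16 in control and 6.19 and 5.86 after 5-aza-dC, 1.87-fold higher (adjusted p = 0.00281). Abca7, a phospholipid exporter, was lower at both kept probes and 1.62-fold lower at the probe used (8.09 and 8.23 against 7.37 and 7.55; adjusted p = 0.00446). Abca8b was detected on all 4 control arrays and no treated array and was at least 1.20-fold lower (5.01 and 5.07 against 4.38 and 4.44; adjusted p = 0.00222). Abca2, a lysosomal lipid transporter, and Abca3, the transporter that fills lamellar bodies with surfactant lipid in lung, did not pass (log2 fold changes -0.02 and -0.16). The second kept probe of Abca3 was called lower (-0.46).

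Abca1, the exporter of cellular cholesterol to apolipoprotein A-I, was undetected on every array at its single probe, with signals of 41.4 to 46.9 in control and 39.2 to 47.5 after 5-aza-dC. Abcg1, which passes cholesterol to lipoprotein particles, was undetected as well (40.3 to 44.2 against 41.8 to 47.3), as was Abcg2, the breast cancer resistance protein (42.6 to 47.9 against 42.0 to 49.4). Of the 6 Abcg genes only Abcg4 was tested, with a probe near background and a log2 fold change of -0.17 that did not pass (adjusted p = 0.244). Abcg3 and the intestinal and biliary sterol pumps Abcg5 and Abcg8 were undetected. A signal at background does not show that a transcript is absent, since a probe can fail.

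Over all 68 members, the 59 probes of the undetected genes had signals between 36.5 and 57.6 units, while the median of all probes per array was 56.2 to 63.9. Of the 43 member probes kept, 19 were called higher, 10 lower and 14 did not pass, where 52.2% of all kept probes were called. Among the 10 members with more than 1 kept probe, 6 had the same call at every probe, 4 (Slc47a1, Slc22a17, Abca3 and Abcc5) had calls that differed between probes, and 0 had probes called in opposite directions.

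Members that lie next to each other on a chromosome, with no other protein-coding gene between them in RefSeq, formed 13 runs with 32 members in all. In 6 runs every member was undetected, and only 2 runs held more than 1 tested member. Besides the runs of Slc47a1, Slc22a4 and Abcb1b, the run Abca8b, Abca8a, Abca9, Abca6 and Abca5 began with a gene that was lower and ended with one that was higher, while the 3 between them were undetected. Abca3 did not pass and its neighbour Abca17 was undetected. The plot of neighbouring members gives the difference at every probe.

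**Figure D4:**
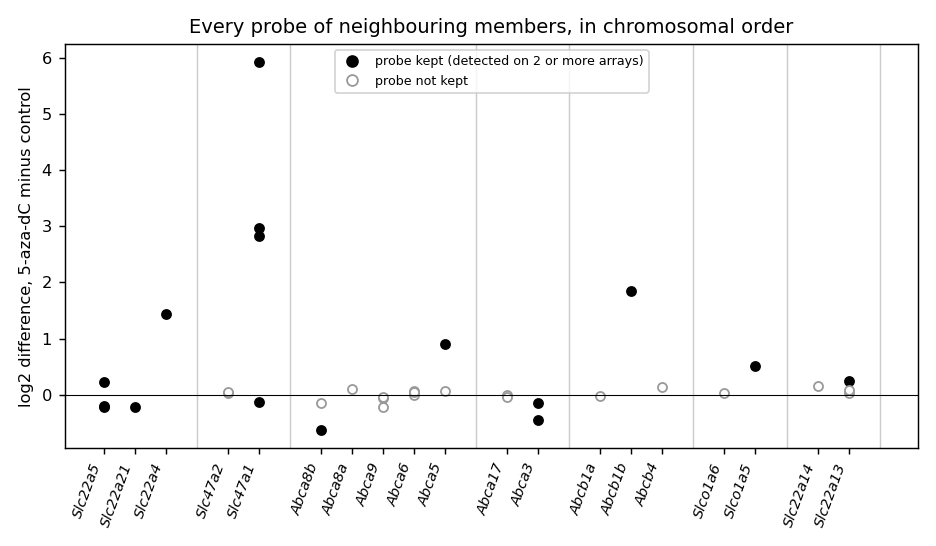
Log2 difference, 5-aza-dC minus control (y axis), of every probe of members in runs of adjacent genes with at least 1 tested member, in chromosomal order, with grey lines between runs. Filled points are kept probes and open points are probes that were not kept. In the runs of Slc47a1 (5.93), Slc22a4 (1.44) and Abcb1b (1.85) 1 gene stands above its neighbours at the probe used. The neighbours of Slc47a1 and Abcb1b were undetected on every array, and the Slc47a1 probe ILMN_2694463 lies at -0.14. Abca5 (0.90) and Slco1a5 (0.51) also stand above undetected neighbours.

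RefSeq promoter windows matched 56 of the 68 members, among them 10 of the 12 higher and 4 of the 6 lower members. The 12 without an entry were Abca6, Abcb8, Abcc1, Abcc3, Abcc6, Abcc8, Abcg1, Abcg4, Slc22a7, Slc22a21, Slc47a1 and Slco3a1. The higher members had a median of 19.5 CG per window, with a range from 2 (Slc22a18) to 40 (Abca5), the lower members 11.5 (range 9 to 19) and those that did not pass 25 (range 0 to 34). All genes called higher had a median of 22, all genes called lower 18 and all genes tested 20.5. The 35 matched members that were undetected on every array had a median of 5, with an observed-to-expected CG ratio of 0.277, against 18.5 and 0.645 for the 20 matched members tested. Over all genes with a promoter window, on the array or not, the medians were 7 and 0.39, beside 20.5 and 0.75 for all genes tested. A lower count outside the tested genes is thus not particular to the members. Slc22a19, Slco1a1 and Slco1b2, all undetected, had no CG in their windows, while Abca1, undetected too, had 26. These are descriptions of the reference sequence with no test.

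**Figure D5:**
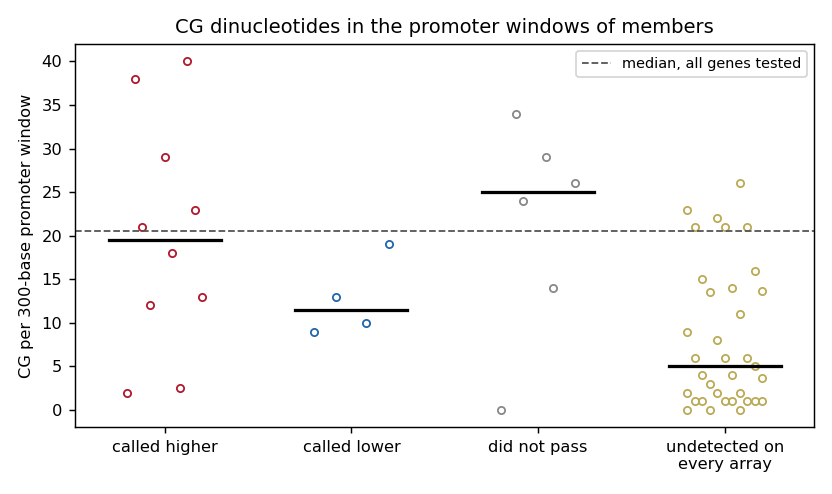
Number of CG dinucleotides per 300-base promoter window (y axis, mean where a gene has several windows) of the matched members in 4 classes by call, with black lines at the class medians and a dashed line at 20.5, the median of all genes tested. The undetected members lie lowest, with a median of 5.

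Genes that work with these transporters were counted as well. Of 24 genes of the cholesterol and lipid export network 16 were tested, of which 11 were lower, 5 did not pass and 0 were higher (limma, with Rxra alone higher at an unadjusted p under 0.05), with a median log2 fold change of -0.58, where 25.7% of all genes tested were lower and 26.3% higher. Apod, a lipid-binding apolipoprotein, was at least 5.88-fold lower, Pltp, which moves phospholipids between lipoproteins, 3.58-fold lower, and the fatty acid desaturase genes Scd2 and Scd1 were 2.57-fold and 2.42-fold lower. Of 35 xenobiotic receptor and drug metabolism genes 19 were tested, of which 11 were lower, 2 higher and 6 did not pass, with a median of -0.47, beside the same shares of all genes. Fmo1, a flavin mono-oxygenase that oxidises drugs, was 5.77-fold lower, and the glutathione transferase genes Gstm2, Gstt1 and Gstm1 were 5.22-fold, 2.71-fold and 2.08-fold lower. The genes that rose, named after their values were seen, were Nqo1, a quinone reductase (1.74-fold higher), and Nr1h4, the bile acid receptor FXR (at least 1.15-fold higher), which was undetected in control. ABC genes outside the naming rule numbered 8 tested, with 3 higher, 2 lower and 3 that did not pass, again beside 26.3% higher and 25.7% lower of all genes tested. Those higher were Abcf2 (1.90-fold), Abce1 (log2 fold change 0.85) and Abcf1 (1.41-fold), soluble ABC proteins of translation and ribosomes rather than transporters, and those lower were the peroxisomal fatty acid transporter Abcd2 (at least 1.42-fold) and Abcf3 (1.36-fold).

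The labelled cell type was checked against markers. Of 9 fibroblast markers 7 were detected in both groups, 4 were lower after 5-aza-dC (Col1a1, Col1a2, Pdgfra and Pdgfrb, by 3.22-fold to 6.54-fold), Thy1 was higher (1.33-fold), and Vim and S100a4 did not pass (log2 fold changes 0.15 and 1.10). The list had a summed signal of 33110 to 35520 units in control and 15970 to 18580 after treatment. Dpt and Fap were undetected. Of the cell types in which many members are high, hepatocyte markers were detected for 2 of 7 (Afp on treated arrays only, Apoa2 lower) with Alb and Ttr undetected, and their summed signal was 311 to 362 units in control and 304 to 361 after 5-aza-dC. Kidney proximal tubule markers were detected for 1 of 5, Aqp1 (2.27-fold higher), with Lrp2, Slc34a1 and Slc5a2 undetected, and their summed signal, which Aqp1 dominates, rose from 2477 to 2693 to 4878 to 5683 units. Of the endothelial markers 1 of 5 was detected (Pecam1, in control only), and macrophage and trophoblast markers were detected for 0 of 4 and 0 of 3. The part of cell composition in the members' differences was not tested, and in bulk RNA fewer cells of a type and less RNA per cell cannot be told apart. Mean signal per array was 295 to 376 units with 12841 to 13595 probes detected. Control replicates differed from each other by an SD of 0.17 over genes on the log2 scale and 5-aza-dC replicates by 0.32. Dnmt1 transcript was present in all samples and higher after 5-aza-dC (log2 fold change 0.85, adjusted p = 0.00173).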

How the data were processed

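Total RNA of 8 samples was measured on Illumina bead arrays. The authors deposited non-normalised bead intensity with a detection p-value per probe and array, and a second table of intensity values normalised with lumi (background subtraction, variance stabilisation and robust spline normalisation), for which no version was found in the labels or methods. The probe table names 1 symbol for 23978 of 25697 probes, none several, and 1719 are not listed; symbols were updated by Entrez ID (23962) or accession (9), and 7 were kept as given.

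Signals were normalised with neqc (limma 3.58.1, R 4.3.3, offset 16), estimating the negative control signal from each array's detection p-values. Probes detected (p under 0.05) on at least 2 of 8 arrays were kept, each gene was read by its brightest kept probe, and technical arrays were averaged. Groups were compared with lmFit and eBayes (trend) with Benjamini-Hochberg adjustment over all 9502 genes, or over 14308 probes for single probes. Where a probe was undetected on every array of 1 group, its arrays were set to the dimmest detected probe on them, which gives the "at least" folds, valid for this offset. The fit was tested on simulated data. The number of arrays limits the precision.

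Members given in full were those called with a log2 fold change of at least 1 in size, the Slc47a1 probes, and chosen drug, cholesterol and carnitine transporters; other members are given by family, and from each side list at most the 4 called genes of largest change, plus all called ABC genes and the 2 xenobiotic genes that rose, which were added after their values were seen. The members and lists were chosen with earlier results of these data known.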

Additional observations from a re-analysis of the deposited data

How the results depend on the processing

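Alternatives were a background offset of 50, median scaling, the deposited normalised values, no or a stricter detection filter, the mean of kept probes, arrays entered singly, the replicate number as a block, and leaving out each replicate. A block with the replicate numbers crossed, chosen after seeing the data, is counted with them. It gave 32 of the values below, with 31 the same and 1 call gained. Over the calls of the single members and Slc47a1 probes, 380 of 402 values kept their direction and side of the threshold, 11 lost a call, 7 gained one and 4 changed sign, all of genes that were called in neither fit. These were Abcc5 (0.015 with the mean of kept probes), Abca2 (-0.15 to 0.11 with a replicate left out) and Slc22a7 (-0.053 to 0.042 with a replicate left out). The median log2 fold change of the members was 0.051 with an offset of 50, 0.043 in the deposited values, 0.0086 with no filter, 0.22 with the stricter filter (which leaves fewer genes), and 0.011 to 0.16 with a replicate left out. The counts with a replicate left out were 9 to 13 members higher and 5 to 7 lower, with the fewest higher without control replicate 2. Of all genes tested, 1568 to 2943 were higher and 1676 to 2963 lower, with 1568 higher without control replicate 1 and 1618 without control replicate 2. With the replicate block 11 members were higher and 6 lower (2177 and 2208 of all genes), and Abcb10 was the one member whose call it ended. Same-numbered replicates deviated in opposite directions (r = -0.63, 2 pairs), so the numbers were not taken to pair the samples. With the numbers crossed, chosen after seeing the data, 12 members were higher and 7 lower. With no filter 3 undetected genes were called, Abca15 (log2 fold change -0.20), Abcb4 (0.14) and Slc22a12 (-0.12). Offset 50 and the deposited values lowered the log2 fold changes of dim genes, for example Slc22a23 to 0.44, Abca5 to 0.53 and Abcb8 to -0.51 with the offset, while Slc47a1 stood at 4.56 and 4.64. With signals near background, small differences were not detectable on these arrays.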
